A study of Aspergillus nidulans with 8 samples.

Results

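The genes described here are cpcA, the gene of the transcription factor of cross-pathway control, and 6 genes of arginine, tryptophan and histidine synthesis in the filamentous fungus Aspergillus nidulans. They were chosen by identifier, as the array probes whose systematic names are ANID_03675 (cpcA), ANID_05867 (arg2), ANID_04409 (argB), ANID_03695 (trpE), ANID_00648 (trpC), ANID_06231 (trpB) and ANID_06536 (his3), each followed by a transcript suffix. All 7 were found, each with 1 probe, among 10550 probes on the array. All 7 passed the filter on dim probes, which left 8633 genes for testing, and each was well above background on all 8 arrays.

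Cross-pathway control is the fungal counterpart of general amino acid control in budding yeast. When a cell lacks one amino acid, or carries uncharged tRNA, a sensor kinase raises translation of a bZIP activator, which is Gcn4 in yeast and CpcA in Aspergillus. The activator then raises transcription of genes for the synthesis of many amino acids, also of those that are not lacking. The arginine, tryptophan and histidine pathways are its classical targets.

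Each array held 1 pool of total RNA from 3 cultures, hybridised in 1 colour (Cy3), and there was 1 array for each combination of strain and condition. The strain labels were the atfA deletion strain TNJ 92.4 (pyrG89, AfupyrG+; pyroA4; DatfA::pyroA; veA+) and the strain THS30.3 (pyrG89, AfupyrG+; pyroA+; veA+). Both thus carried pyrG89 with the pyrG gene of A. fumigatus and a functional veA, and atfA encodes a bZIP factor of the stress response. Submerged cultures in minimal broth were 16 h old when they were exposed for 0.5 h to AmB (amphotericin B, an ergosterol-binding polyene) at 2 mM, to CdCl2 (a salt of a thiol-binding metal) at 0.2 mM, to Congo Red (which binds polymers of the cell wall) at 10 mM, or to nothing. These doses are as the labels give them and were not checked against another source.

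Several facts about the arrays bear on every value below. The atfA probe went against the strain labels: its processed signal was 3271 to 9708 on the 4 arrays labelled deletion and 2.3 to 3.09, not above background, on the 4 labelled reference. The strains are therefore called by their labels throughout. The authors' value table held atfA the other way round, at 6.19 to 6.26 in its columns labelled deletion and 13.66 to 14.60 in those labelled reference (log2). Across genes, the best correlation of each of its 8 columns was with an array that carries the opposite strain label (r = 0.971 to 0.990), so the table and the arrays are not independent of each other. The table's untreated and CdCl2 columns labelled reference correlated best across genes with the CdCl2 and untreated arrays labelled deletion, so for this pair the treatment labels disagree as well. Values that rest on these 2 arrays are given under the array labels. If the pair were exchanged, every CdCl2 response on the arrays labelled deletion would change sign, and the fits would change with it. The AmB arrays were dim, with a 75th percentile of the processed signal of 261.4 and 333.8, against 1059 to 1864 on the others. The arrays lay on 2 slides, read from the scanner file names, and Congo Red and untreated arrays of a strain label never shared one.

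A level below is the mean log2 processed signal of a probe's 3 or 4 usable spots minus the 75th percentile of that array, so 0 means a signal equal to that percentile. A response is a treated level minus the untreated level of the same strain label. The SD between spots of 1 probe was 0.013 to 0.13 for the 7 genes. It covers the spread of spots within 1 array, and not differences between slides, scans or cultures. The fitted values come from limma, with terms for strain label, for treatment and for slide over the 8 arrays. Each fitted response is the mean of the responses under both strain labels, its SE measures the departure from additivity, and a gene was called at a Benjamini-Hochberg adjusted p of 0.05 over all genes tested. In bulk RNA, fewer cells of a kind and less RNA per cell cannot be told apart.

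**Figure D1:**
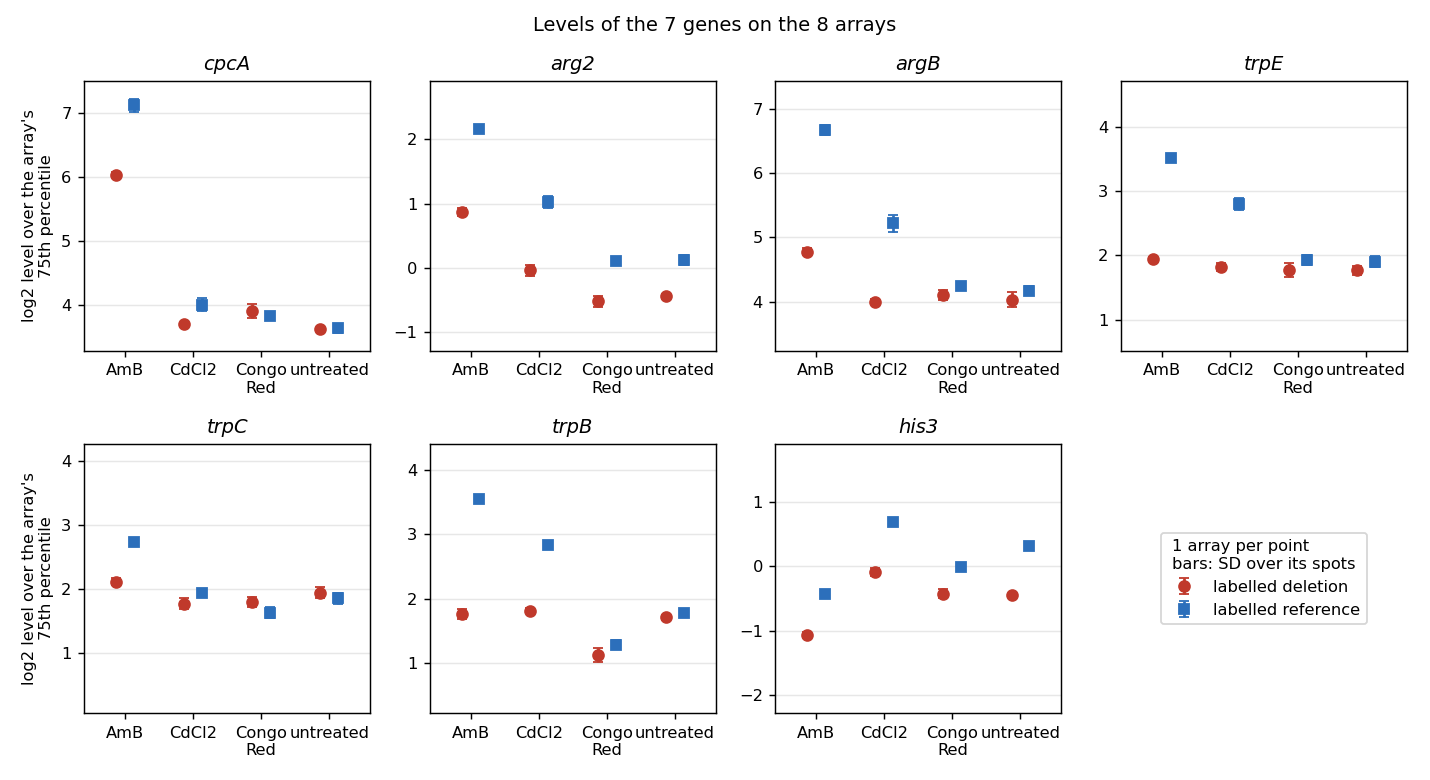
Levels of the 7 genes on the 8 arrays (y axis, log2 over the array's 75th percentile, each panel spanning the same range) by treatment (x axis), with arrays labelled deletion as circles and arrays labelled reference as squares. Each point is 1 array and bars are the SD over its spots; cpcA stands highest on both AmB arrays, at 6.03 and 7.12, against 3.63 to 4.01 on the other 6.

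The first comparison asked how the genes responded to AmB. The activator gene cpcA rose most, and arg2 rose with it, while the other arginine and tryptophan genes lay higher in the mean without passing the test and his3 lay lower. Of the 7 genes, 2 rose and none fell, where 8.61% of all genes tested rose and 3.1% fell. At an unadjusted p under 0.05 the counts were 3 of 7 higher, against 18.9% of all genes, and 0 of 7 lower, against 15.3%. The median fitted response of the 7 was 0.91, against -0.010 over all genes tested.

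The level of cpcA (ANID_03675) was 6.03 on the AmB array labelled deletion, against 3.63 on the untreated one, and 7.12 on the AmB array labelled reference, against 3.64. Both AmB arrays stood above all the other 6. The fitted response was 2.94 ± 0.38 on the log2 scale, a 7.69-fold rise (limma adjusted p = 0.0225). These are levels relative to the array. The unscaled processed signal of cpcA was 17124 under AmB and 17935 untreated on the arrays labelled deletion, and 46414 and 16978 on those labelled reference, so on the first pair the rise is one over the other genes of a dim array.

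Among the arginine genes, arg2 is named after the budding yeast gene of acetylglutamate synthase, which starts ornithine synthesis. The level of arg2 (ANID_05867) was 0.87 under AmB and -0.45 untreated on the arrays labelled deletion, and 2.16 and 0.13 on those labelled reference. Each AmB array thus stood above the untreated one of its label, while the AmB array labelled deletion stood below the CdCl2 array labelled reference at 1.02. The fitted response of arg2 was 1.67 ± 0.32 (limma adjusted p = 0.0422). Its unscaled processed signal was 477.02 under AmB and 1065 untreated on the arrays labelled deletion, and 1490.0 and 1484 on those labelled reference, so under both labels the rise of arg2 is one over the other genes of a dim array. For argB (ANID_04409), the gene of ornithine carbamoyltransferase, which makes citrulline, the level was 4.77 under AmB and 4.03 untreated on the arrays labelled deletion, and 6.67 and 4.17 on those labelled reference. Its fitted response of 1.62 ± 0.49 was close in size to that of arg2 but had a wider error (limma adjusted p = 0.0922). The unscaled processed signal of argB was 7144 under AmB and 23720 untreated on the arrays labelled deletion. On the arrays labelled reference it was 34101 and 24516.

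The tryptophan genes are given in the order of the pathway. In bacteria trpE is the name of a subunit of anthranilate synthase, the first enzyme of the branch, trpC of A. nidulans encodes a protein with 3 activities of the branch, and trpB encodes tryptophan synthase, the last enzyme. The level of trpE was 1.95 under AmB and 1.77 untreated on the arrays labelled deletion, and 3.52 and 1.90 on those labelled reference. For trpB the levels were 1.76 and 1.71, and 3.55 and 1.77, in the same order. Relative to the array, both genes were thus high on 1 AmB array only, that labelled reference. On the arrays of that label the unscaled processed signal was 3840 under AmB and 5079 untreated for trpE, and 3899 and 4643 for trpB. On the arrays labelled deletion it was 1011 and 4958 for trpE, and 887 and 4749 for trpB. For trpC it was 1136 and 5594 on the arrays labelled deletion, and 2219 and 4921 on those labelled reference. None of these genes had a higher unscaled signal under AmB. For trpC the levels were 2.12 under AmB and 1.95 untreated on the arrays labelled deletion, and 2.73 and 1.86 on those labelled reference, the narrowest range of the 7 genes over the 8 arrays (1.10, against 1.75 to 3.49 for the others). The fitted responses were 0.90 ± 0.43 for trpE, 0.53 ± 0.32 for trpC and 0.91 ± 0.48 for trpB, with limma adjusted p of 0.204, 0.293 and 0.237.

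In budding yeast his3 is the gene of imidazoleglycerol-phosphate dehydratase, an enzyme of histidine synthesis. It had the opposite sign: its level was -1.07 under AmB and -0.44 untreated on the arrays labelled deletion, and -0.42 and 0.32 on those labelled reference. The AmB array was the lowest of the 4 under each label. The fitted response was -0.68 ± 0.28 (limma adjusted p = 0.161), and the responses under the labels were close, at -0.62 and -0.75.

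The alternative settings changed more than the scaling. Normexp changed the background correction, and the value table holds a pair of columns whose treatment labels disagree with the arrays. The median fitted AmB response over all genes tested moved with the setting. It was -0.010 here, -0.27 with quantile normalization, -0.20 in the authors' value table and 0.62 with normexp background correction. Relative to that median, cpcA stood at 2.95 here and at 2.74, 2.37 and 1.94 under the 3 alternatives. For arg2 these values were 1.68, then 1.85, 1.49 and 0.79, and for argB 1.63, then 1.44, 1.23 and 0.65. For his3 they were -0.67, then -0.44, -0.64 and -1.20 with normexp. With normexp the tryptophan genes lay at or below the median of all genes, at -0.022 for trpE, -0.38 for trpC and -0.052 for trpB, and above it under the other settings. Single arrays moved the count of 2 genes called: it was 0 without the untreated array labelled reference, 1 without the untreated array labelled deletion, 1 without either CdCl2 array, and 5 without the AmB array labelled deletion. The share of all genes called higher moved with it, to 1.02% in the first of these fits and 27.2% in the last, against 8.61% with all arrays. In the authors' value table cpcA alone passed.

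**Figure D2:**
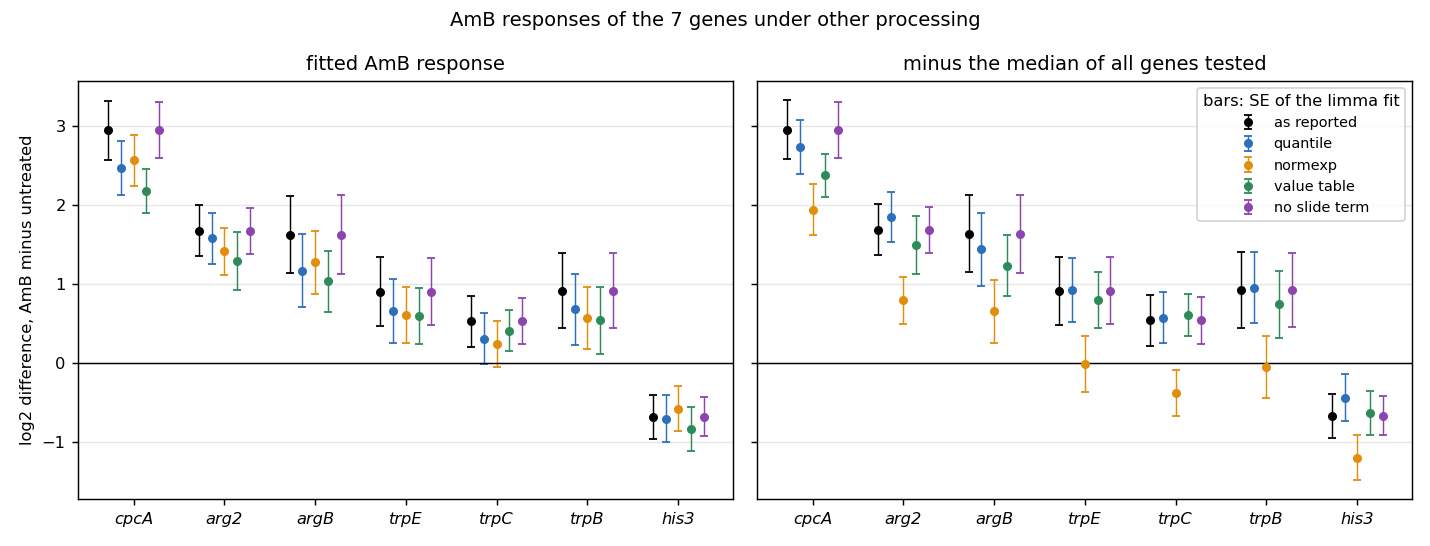
Fitted AmB responses of the 7 genes (y axis, log2 difference, AmB minus untreated) as reported and under quantile normalization, normexp background correction, the authors' value table and no slide term. The left panel shows the values as fitted and the right panel the same minus the median of all genes tested; bars are the SE of the limma fit, and cpcA lies between 1.94 and 2.95 in the right panel.

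Signed responses to AmB were higher on the arrays labelled reference for 6 of the 7 genes, and so were those of 49.0% of all genes tested. The exception, his3, fell more on the arrays labelled reference, at -0.75 against -0.62. At least 2-fold higher under AmB were 2 of 7 genes on the arrays labelled deletion, cpcA and arg2, against 17.5% of all genes tested, and 5 of 7 on those labelled reference, against 27.4%. The response of cpcA was 2.41 on the arrays labelled deletion and 3.48 on those labelled reference, that of argB 0.74 and 2.50, that of trpB 0.053 and 1.77, and that of trpE 0.18 and 1.62. The response of arg2 was 1.32 and 2.03, so cpcA and arg2 were the 2 genes that stood at least 2-fold higher under both labels. Against the CdCl2 array labelled deletion, which takes the place of the untreated one if that pair is exchanged, the AmB array labelled deletion stood higher by 2.33 for cpcA and 0.91 for arg2, so arg2 would then lie under that limit. The signed response on the arrays labelled deletion was lower by at least 1 on the log2 scale for 4 of the 7 genes. These were cpcA, argB, trpB and trpE, and 21% of all genes tested were lower by as much. With 1 array per combination, these differences have no replicate check and were not tested. Each was larger than 2 SE of the spots, which were 0.035 to 0.094 for a difference of responses. With the untreated and CdCl2 arrays labelled deletion exchanged, arg2 would also be lower by at least 1, at 0.91 against 2.03. The response of his3 would be -0.97 against -0.75, so it too would be higher on the arrays labelled reference.

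In the value table the higher signed AmB response lay in the columns labelled deletion for all 7 genes. Examples are 2.49 and 1.85 for cpcA and 1.70 and 0.36 for argB in the columns labelled deletion and reference. For his3 both were falls, at -0.73 and -0.95, so the smaller fall lay in the columns labelled deletion.

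**Figure D3:**
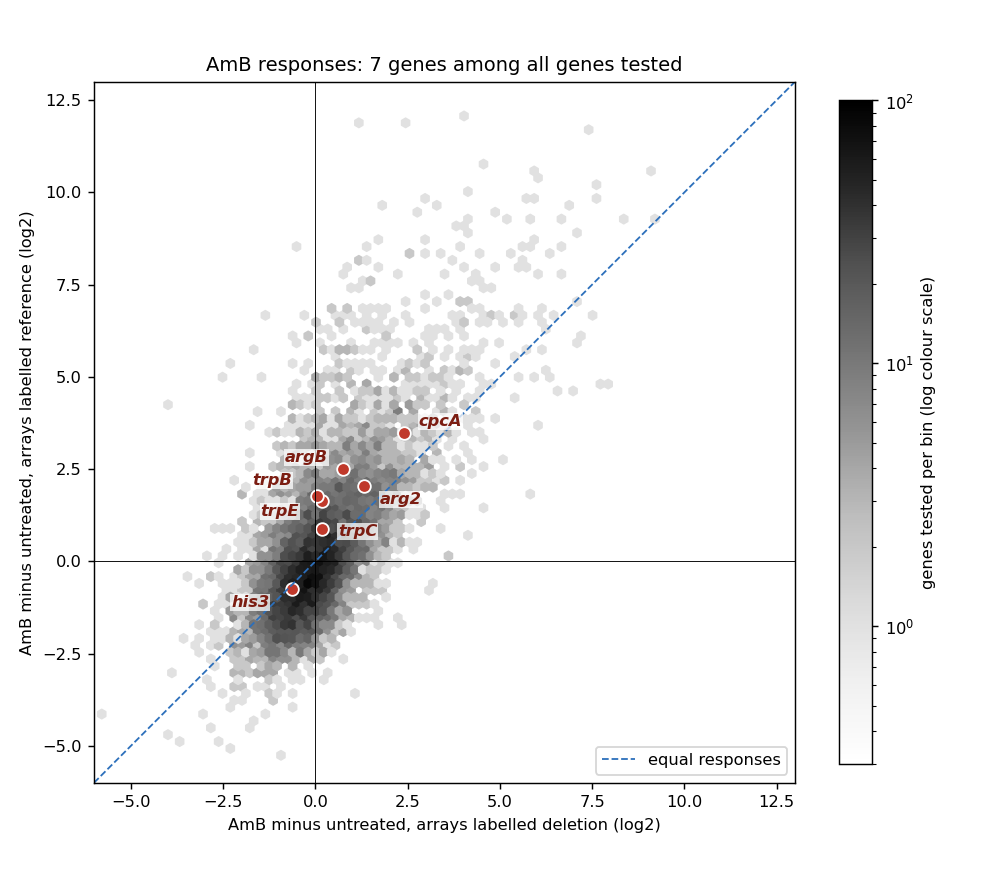
AmB response of each gene tested on the arrays labelled deletion (x axis, log2) and on the arrays labelled reference (y axis, log2), with the 7 genes as red points and all 8633 genes as bins shaded by the number of genes. Points above the dashed line had the higher signed response on the arrays labelled reference, as 6 of the 7 genes do. Far above it lie argB, trpB and trpE. Their responses were 0.74, 0.053 and 0.18 on the arrays labelled deletion and 2.50, 1.77 and 1.62 on those labelled reference.

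The second comparison concerned CdCl2. No gene of the 7 passed in limma, where no gene of the 8633 was called (0% in either direction), and none had an unadjusted p under 0.05, which 0.405% of all genes had on the higher side and 0.88% on the lower. The fitted responses were 0.65 ± 0.32 for arg2 (unadjusted p = 0.104, the lowest of the 7), 0.58 ± 0.48 for trpB, 0.51 ± 0.49 for argB, 0.48 ± 0.43 for trpE, 0.36 ± 0.28 for his3, 0.22 ± 0.38 for cpcA and -0.039 ± 0.32 for trpC. Their median was 0.48, against -0.028 over all genes tested.

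These means hide unlike values under the strain labels. The level of argB under CdCl2 was 3.996 on the array labelled deletion, against 4.03 untreated, and 5.22 on the array labelled reference, against 4.17. For trpB the levels were 1.81 against 1.71, and 2.83 against 1.77. For trpE they were 1.82 against 1.77, and 2.80 against 1.90. In these 3 genes the CdCl2 array labelled reference stood above all arrays but the AmB array of that label, while the CdCl2 array labelled deletion lay close to its untreated array. The level of arg2 was -0.043 against -0.45 on the arrays labelled deletion and 1.02 against 0.13 on those labelled reference. Its response on the arrays labelled deletion was thus 0.40, which would be -0.40 if the untreated and CdCl2 arrays of that label were exchanged, the pair whose treatment labels the value table contradicts.

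At least 2-fold higher under CdCl2 were 0 of 7 genes on the arrays labelled deletion (0.556% of all genes tested) and 2 of 7, argB at 1.05 and trpB at 1.06, on those labelled reference (4.52%). Just under that limit lay trpE at 0.90 and arg2 at 0.89. The activator gene cpcA itself moved little, by 0.078 on the arrays labelled deletion and 0.37 on those labelled reference, and his3 had responses of 0.35 and 0.36. With the pair labelled deletion exchanged, the first of these would be -0.35 and the mean response of his3 would be 0.0027. The median response of the 7 genes was 0.078 on the arrays labelled deletion and 0.89 on those labelled reference, against -0.043 and -0.037 over all genes tested.

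In the value table the columns labelled deletion held responses of 1.04 for argB, 0.96 for trpB, 0.83 for trpE and 0.85 for arg2, and the columns labelled reference 0.035, -0.066, -0.011 and -0.39. For his3 they held 0.32 and -0.35, for cpcA 0.33 and -0.065, and for trpC 0.0047 and 0.21, in the same order. The columns labelled reference are the pair whose treatment labels disagree with those of the arrays. Every gene named here has the sign there that the exchanged arrays labelled deletion would give. These columns are the ones that correlate best with those arrays across genes, so the signs are not independent of that match. The exchanged responses would be 0.034 for argB, -0.10 for trpB, -0.051 for trpE and -0.40 for arg2. For his3, cpcA and trpC they would be -0.35, -0.078 and 0.17. The AmB and CdCl2 responses of a label share 1 untreated array, so they are not independent of each other. Without the untreated array labelled reference the fitted CdCl2 responses of cpcA, argB, trpB and trpE turned to -0.12, -0.20, -0.088 and -0.097.

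**Figure D4:**
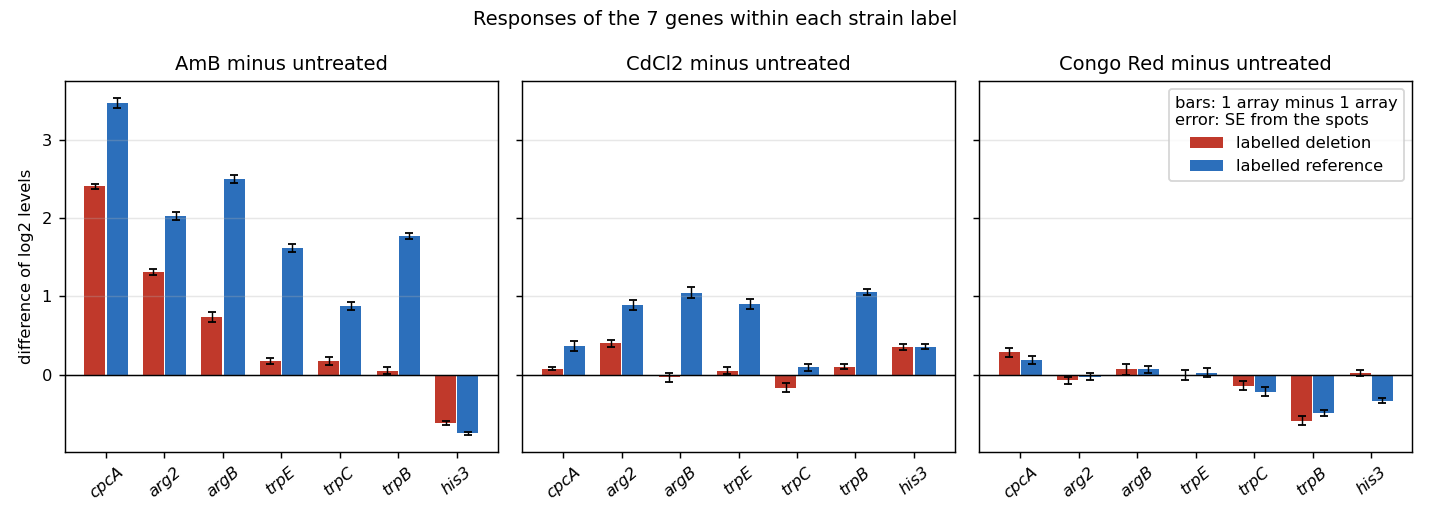
Responses of the 7 genes (y axis, log2 level of the treated array minus that of the untreated array) to AmB, CdCl2 and Congo Red, with the arrays labelled deletion left of those labelled reference. Bars start at 0 and are 1 array minus 1 array, and error bars are the SE from the spots; under CdCl2, argB, trpB and trpE stand at -0.034, 0.10 and 0.051 on the arrays labelled deletion and reach 1.05, 1.06 and 0.90 on those labelled reference.

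The third comparison concerned Congo Red. None of the 7 was called in limma, where 0.0232% of all genes tested were called higher and 0% lower, and none had an unadjusted p under 0.05, as 2.24% of all genes had on the higher side and 0.776% on the lower. The fitted responses ran from -0.54 ± 0.48 for trpB to 0.24 ± 0.38 for cpcA, with a median of -0.048, against -0.0058 over all genes tested. No gene of the 7 was at least 2-fold higher or lower under either label; the shares of all genes tested were 2.76% higher and 2.87% lower on the arrays labelled deletion and 7.15% and 1.44% on those labelled reference.

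For trpB the level under Congo Red was 1.12 on the array labelled deletion, against 1.71 untreated, and 1.28 on the array labelled reference, against 1.77. These were the lowest levels of trpB on the 8 arrays. The level of trpE, at 1.77 and 1.93, and that of argB, at 4.10 and 4.24, were within 0.1 of the untreated levels 1.77 and 1.90, and 4.03 and 4.17. Within a label the slide of the Congo Red array was not that of the untreated one, so treatment and slide cannot be told apart there; in the fitted mean the slides cancel.

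The fourth comparison was between the strain labels. All 7 fitted differences, labelled deletion minus labelled reference, were below 0 and none was called, where 1.01% of all genes tested were called higher and 0.857% lower. At an unadjusted p under 0.05, 1 of 7 was lower and 0 of 7 higher, against 5.73% and 7.22% of all genes. The median was -0.56, against -0.042 over all genes tested, and 54.6% of all genes had a value below 0. The sizes were -0.80 ± 0.26 for arg2 (limma adjusted p = 0.297, unadjusted p = 0.0307), -0.62 ± 0.40 for argB, -0.57 ± 0.23 for his3, -0.56 ± 0.39 for trpB, -0.53 ± 0.35 for trpE, -0.19 ± 0.31 for cpcA and -0.031 ± 0.26 for trpC. In this fit the Congo Red pair of arrays weighs as much as the other 3 pairs together.

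The single conditions differed. In each condition the arrays of the strain labels lay on different slides, so label and slide cannot be told apart in a difference within 1 condition. Under AmB 5 of the 7 genes were at least 2-fold lower on the array labelled deletion than on that labelled reference (18% of all genes tested), with -1.90 for argB, -1.78 for trpB, -1.57 for trpE, -1.29 for arg2 and -1.09 for cpcA. Under CdCl2 it was 3 of 7 (8.85%), argB at -1.22, arg2 at -1.06 and trpB at -1.02. Under Congo Red and untreated it was 0 of 7 (6.37% and 5.33%). In untreated cultures cpcA stood at 3.63 on the array labelled deletion and 3.64 on that labelled reference, argB at 4.03 and 4.17, trpE at 1.77 and 1.90, trpB at 1.71 and 1.77 and trpC at 1.95 and 1.86. The genes that lay apart without treatment were his3, at -0.44 and 0.32, and arg2, at -0.45 and 0.13. With the untreated and CdCl2 arrays labelled deletion exchanged, the untreated difference, labelled deletion minus labelled reference, would be -0.42 for his3 and -0.17 for arg2. The CdCl2 difference would then be -1.47 for arg2, -1.19 for argB and -1.12 for trpB. At -1.13 and -1.03, his3 and trpE would also be at least 2-fold lower. It would be -0.38 for cpcA and -0.0021 for trpC.

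Among the 4 conditions, the label difference of his3 was -0.64 under AmB, -0.77 under CdCl2, -0.42 under Congo Red and -0.77 untreated, so it was below 0 throughout. That of arg2 was below 0 throughout as well, between -1.29 and -0.57, and between -1.47 and -0.17 with that pair exchanged. In the value table the fitted label differences of 6 of the 7 genes had the opposite sign, with 0.72 for arg2 and 0.54 for his3. Conidiation markers also differed between the labels: the summed signal of 6 of them (brlA, abaA, wetA, rodA, pksP and yA), over each array's 75th percentile, was 0.557 to 1.17 on the arrays labelled deletion and 2.36 to 3.99 on those labelled reference. Most of this difference between the labels was rodA, the gene of a spore wall hydrophobin. It was lower on the arrays labelled deletion (fitted difference -3.32 ± 0.45, limma adjusted p = 0.0474). The fitted difference of brlA was -1.85 ± 0.30 (limma adjusted p = 0.0736). The other 4 markers had values above 0 and did not pass the test, with 0.82 for wetA, 0.55 for abaA, 0.33 for yA and 0.27 for pksP, and the median of the 6 was 0.30. The transcript of wetA was above background on 3 arrays, all labelled deletion. Their part in the values of the 7 genes was not tested.

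The patterns of the 7 genes over the 8 arrays were compared by the root-mean-square difference of their log2 levels, each gene centred on its own mean. The closest pair was arg2 and argB, at 0.24, followed by trpE and trpB at 0.26. The activator gene cpcA was 0.69 from both argB and arg2, and 0.93 to 0.97 from the tryptophan genes. The pair farthest apart was cpcA and his3, at 1.57. Among 687 other genes with a symbol that were above background on all arrays, those nearest to cpcA were rglB at 0.23, CweA at 0.28, hxB at 0.29, isn1 at 0.35 and xlnD at 0.41. The nearest to trpB was lys1, a gene named for lysine synthesis in budding yeast, at 0.16, ahead of trpE at 0.26. For arg2 and argB, after each other, these were atrF at 0.28 and akuA at 0.28. The nearest were vps27 at 0.23 and sod1 at 0.26 for trpE, dph1 at 0.13 and artA at 0.13 for trpC, and dhh1 at 0.24 and gisB at 0.24 for his3. These distances are descriptions, and they share the same 8 arrays and their scaling.

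Other genes of the pathway were taken from a list of 71 symbols for regulators of cross-pathway control, enzymes of arginine synthesis and breakdown and enzymes of the tryptophan, histidine and shikimate pathways. Of these, 6 were matched, 3 of 4 regulators and 3 of 25 arginine entries. Of the tryptophan, histidine and shikimate entries, 0 of 9, 0 of 16 and 0 of 17 were matched, so the 6 genes do not cover those pathways. Under AmB 0 of the 6 were called, where 8.61% of all genes tested were called higher and 3.1% lower, and at an unadjusted p under 0.05 it was 1 higher and 1 lower, against 18.9% and 15.3%. In the other 3 comparisons 0 of the 6 were called, and 0 had an unadjusted p under 0.05. Their median fitted AmB response was -0.093. The 3 regulator genes were cpcB, whose product is a G-beta-like protein that restrains the response, cpcC, the gene of the sensor kinase, and AN1812, which the list enters as jlbA but which has no symbol in the RefSeq table. Under AmB the fitted response of cpcC was -1.10 ± 0.32 (limma adjusted p = 0.0847), with levels of 0.19 against 1.00 untreated on the arrays labelled deletion and -0.24 against 1.15 on those labelled reference. Both AmB arrays were thus the lowest for cpcC, opposite in sign to cpcA. For cpcB the fitted response was -0.17 ± 0.32, and its level stayed between 5.73 and 6.29 on all 8 arrays. This depended on the processing. The AmB response of cpcB was 0.19 on the arrays labelled deletion and -0.52 on those labelled reference. With quantile normalization these were -0.21 and -1.05. In the value table they were -1.16 and -0.35 in the columns labelled deletion and reference. AN1812 had the largest AmB response of the 6 under each label. Its level was 5.70 against 4.37 untreated on the arrays labelled deletion, and 8.61 against 4.33 on those labelled reference, with a fitted response of 2.81 ± 0.74 (limma adjusted p = 0.0711).

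Of the arginine genes on this list, argEF, which encodes the precursor of acetylglutamate kinase and reductase, had a fitted AmB response of -0.020 ± 0.30. For cpa1, a subunit of the carbamoyl-phosphate synthetase that feeds arginine synthesis, the value was -0.93 ± 0.44 (limma adjusted p = 0.199), so it lay lower where argB and arg2 lay higher. The breakdown gene car2 is named after the budding yeast ornithine transaminase. For car2 the AmB array labelled deletion was not well above background, and on the arrays labelled reference the levels were -1.50 under AmB and -4.91 untreated. The fitted AmB response of car2 was 1.48 ± 0.99 (limma adjusted p = 0.327).

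Under CdCl2 the largest fitted values of the 6 were -1.32 ± 0.99 for car2, 0.40 ± 0.74 for AN1812 and -0.11 ± 0.32 for cpcB. AN1812 shared the unequal CdCl2 values of argB and trpB, with -0.051 on the arrays labelled deletion and 0.86 on those labelled reference. Under Congo Red the largest were -0.53 ± 0.44 for cpa1, -0.33 ± 0.30 for argEF and -0.30 ± 0.32 for cpcB. Between the strain labels they were -1.03 ± 0.81 for car2, -0.66 ± 0.60 for AN1812 and -0.40 ± 0.36 for cpa1.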

How the data were processed

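Transcript levels were measured on 8 one-colour Agilent arrays. Per the file headers and the submitters' processing notes, the authors read the arrays with Agilent Feature Extraction 12.0.3.1. The deposited scanner files give each spot's processed intensity (linear, after background subtraction) and its median spot and background intensities. A value table deposited by the authors holds log2 values (column medians 9.24 to 9.26); how it was scaled, and its zero point, are not given in the sources used here. Control spots and outlier spots (1.46% to 1.90% per array) were left out, the log2 signals were averaged over the spots of each probe, and the array's 75th percentile was subtracted. Genes well above background on at least 2 arrays were tested with lmFit and eBayes of limma 3.58.1 under R 4.3.3 (strain label, treatment and slide as terms, 2 residual degrees of freedom), with Benjamini-Hochberg adjustment, after a check of the script on simulated data. The labels do not give the slide; it was read from the barcodes in the file names.

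Of the probes, 9697 matched a locus tag of the RefSeq table of assembly ASM1142v1 and 776 had a symbol there. Some symbols are those of orthologues. The sources used here name no genome build. The order of genes in the RefSeq table was used for the closing observations only, and sequences were not used. The normexp alternative was planned on the mean spot signal, which the files do not hold, and used the median spot signal with an offset of 50. Precision is limited by the number of arrays, and p-values reflect how far the responses under the strain labels depart from each other, and not how cultures vary.

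The genes and lists were chosen with earlier results of these data known. Named were the 7 genes in every comparison, genes of the pathway list that passed the test or else the 3 with the largest absolute fitted values, and the genes with a symbol nearest in pattern, 5 for cpcA and 2 for each other gene. Further values of list genes were given after they were seen. The alternatives were quantile normalization, normexp, the value table, no slide term, other filters on dim probes, leaving out each array and leaving out the AmB pair.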

Additional observations from a re-analysis of the deposited data

Results flagged for a closer look

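For 4 responses the value had one sign on the arrays labelled deletion and the other sign on those labelled reference. None of these differences was tested, since each rests on 1 array per combination. The CdCl2 response of argB was -0.034 on the arrays labelled deletion and 1.05 on those labelled reference, a difference of -1.08 with a spot SE of 0.094. The CdCl2 response of trpC was -0.17 and 0.093 in that order, a difference of -0.26. The Congo Red response of his3 was 0.018 and -0.33, a difference of 0.35, and that of trpE was -0.0023 and 0.027, a difference of -0.030, which is within the spot SE of 0.086. Of these 4, the value table showed a difference of sign for trpE alone, at 0.20 in the columns labelled deletion and -0.088 in those labelled reference. It held 1.04 and 0.035 for argB and 0.0047 and 0.21 for trpC under CdCl2, and -0.31 and -0.29 for his3 under Congo Red. Both CdCl2 differences rest on the pair of arrays labelled deletion whose treatment labels the value table contradicts. With that pair exchanged, the responses there would be 0.034 for argB and 0.17 for trpC, of the same sign as on the arrays labelled reference. Within each label the Congo Red array was on another slide than the untreated one, so for the last pair of genes treatment and slide cannot be told apart.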

How the results depend on the processing

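No paired analysis was possible because each combination of strain label and treatment had 1 array and the labels carry no replicate numbers. Strain label and slide were terms of the fit. Without a Congo Red array the slide could not be estimated, so the fits that left out either one had no slide term. In them the strain value of cpcA was -0.47, against -0.19 as reported. The count of 2 genes called for AmB was 1 in the value table and 0 to 5 when each array was left out in turn; the cause was not tested. It stayed at 2 with quantile normalization, no slide term and both other filters, and was 3 with normexp, where 42.0% of all genes tested were called higher. The fitted AmB responses of the 7 genes kept their sign under every alternative run, but not their size: over the fits that left out 1 array each they ran from 2.48 to 3.40 for cpcA, 1.37 to 1.97 for arg2, 0.91 to 2.33 for argB, 0.33 to 1.48 for trpE, 0.24 to 0.81 for trpC, 0.24 to 1.58 for trpB and -0.75 to -0.62 for his3. Over these fits the limma adjusted p ran from 0.00102 to 0.1475 for cpcA and from 0.00638 to 0.405 for arg2. The counts of 0 for CdCl2, Congo Red and the strain labels were 0 under every alternative run. Single values changed sign. For CdCl2, in the value table, these were trpC at 0.11 and his3 at -0.014. For Congo Red it was trpE with normexp, at -0.0059. For the strain labels, in the value table, they were cpcA at 0.14, arg2 at 0.72, argB at 0.52, trpB at 0.47, trpE at 0.45 and his3 at 0.54. The strain value of trpC turned to 0.027 with quantile normalization, 0.00023 with normexp and 0.064 without the AmB arrays. Over the fits that left out 1 array each, the CdCl2 value ran from -0.12 to 0.56 for cpcA, -0.20 to 1.22 for argB, -0.088 to 1.25 for trpB, -0.28 to 0.20 for trpC and -0.097 to 1.05 for trpE. The Congo Red value ran from -0.10 to 0.58 for cpcA, -0.35 to 0.25 for arg2, -0.64 to 0.78 for argB, -1.21 to 0.13 for trpB, -0.42 to 0.061 for trpC and -0.56 to 0.59 for trpE, and the strain value of trpC from -0.23 to 0.064. The cause of these changes was not tested. All 7 probes were well above background on every array, while normexp, which changes the background correction, moved the AmB value of arg2 relative to all genes to 0.79, against 1.68 as reported.

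The count of all genes called for AmB was 1011, of which 73.5% were higher. It was 4250 with normexp (85.3% higher), 1010 with quantile normalization (52.5%), 931 in the value table (50.4%), 1987 with no slide term and 3319 with no filter. Leaving out single arrays gave from 90 (untreated, labelled reference) to 4373 (AmB, labelled deletion). For Congo Red the count of 2 was 63 without the AmB arrays, 10 with normexp and 0 with quantile normalization, in the value table, with no slide term and with the stricter filter, and for the strain labels 161 became 1139 without the AmB arrays, 522 with no slide term, 250 with normexp and 83 with the stricter filter.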

Other observations

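In the gene order of the RefSeq table, cpcC and cpa1 had 2 genes between them, and AN1812 and car2 had 1. AN1812 and car2 both had their highest level on the AmB array labelled reference. On the arrays of that label 27.4% of all genes tested were at least 2-fold higher under AmB. The processed signal of car2 was low, at 118 on that array and 45.3 on the untreated one of the label. The AmB response of AN1812 was 1.33 on the arrays labelled deletion and 4.28 on those labelled reference. For car2 the level on the AmB array labelled deletion was -5.20, not well above background, and the response on the arrays labelled reference was 3.41. Of the 7 genes, cpcA and trpE were the closest in that order, with 23 genes between them.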
